A study of Homo sapiens with 15 samples.

Results

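The 10 genes described here encode adaptors and tyrosine kinases that work beneath cell surface receptors in blood cells: the adaptors DOK1, DOK2, DOK3, SLA, SLA2, LAT and LAT2, and the kinases SYK, BTK and LYN. They were taken by symbol from 19604 genes in each of 2 tables, and all 10 were found in both. The genes lie on chromosomes 2 (DOK1), 5 (DOK3), 7 (LAT2), 8 (DOK2, SLA and LYN), 9 (SYK), 16 (LAT), 20 (SLA2) and X (BTK). The choice was made partly on measured values, because DOK3, SLA and LAT2 were known to be far lower with a drug. Their differences between drug-treated and control cells are therefore a description: no p-value is given for them, and the counts of calls stand only beside those of all genes.

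RNA was sequenced from OCI-AML5, an established human acute myeloid leukaemia line grown with 20% serum and 10 ng/mL of the cytokine GM-CSF, in 15 libraries, 3 for each of 5 groups. In the drug experiment, cells received 1000 nM ARV-825 or 1000 nM OTX015 for 4 h, and control cells were left untreated. OTX015 is an inhibitor of the BET family, readers of histone acetylation that promote transcription. ARV-825 is a PROTAC that joins a BET ligand of this kind to a ligand of the ubiquitin ligase subunit cereblon, so that BET proteins are degraded. In the shRNA experiment, cells carried an shRNA against RUNX1 or a non-targeting shRNA for 72 h. The RUNX1 shRNA libraries carry Runx3 in their titles, and their group follows the label of the treatment. All groups share 1 cell line, and the control cells are labelled as untreated, with no vehicle named.

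Receptors such as Fc receptors signal through tyrosine motifs (ITAMs) that SRC family kinases such as LYN phosphorylate. SYK docks on the phosphorylated motif, and SYK and BTK then activate phospholipase C gamma through scaffolds such as LAT. LAT2 is a related scaffold. DOK1 and DOK2 recruit RasGAP and so restrain Ras signalling. DOK proteins also recruit the lipid phosphatase SHIP1, which restrains phosphoinositide signalling. SLA and SLA2 (SLAP and SLAP2) bring the ubiquitin ligase CBL to receptors and kinases and lower their amount at the surface.

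Promoters of members are shown to let the start regions of DOK3, SYK and BTK, which were lower with both drugs, be read beside their values. RefSeq (GRCh38.p14) windows from 250 bases before to 50 bases after a start were held for 5 of the 10 members, with 11 starts among them. Searched on both strands were TGTGGT and TGCGGT, core letters bound by RUNX factors, GAGGAAGT, the purine box of the myeloid factor PU.1, and AGGAAG, an ETS family core that overlaps the purine box. The window of the DOK3 start that lies farthest upstream, one SYK start and one BTK start are printed 5′ to 3′, with matches to any of these letters in capitals. Each is the window of its gene with the most matches, at 2 for DOK3, 4 for SYK and 5 for BTK, overlapping matches counted separately. The other windows of these genes hold 1 (DOK3 and SYK) or 2 (BTK). DOK1, also lower with both drugs, is not printed, and its windows hold 0 and 1.
DOK3, chr5:177511051-177511350, minus strand: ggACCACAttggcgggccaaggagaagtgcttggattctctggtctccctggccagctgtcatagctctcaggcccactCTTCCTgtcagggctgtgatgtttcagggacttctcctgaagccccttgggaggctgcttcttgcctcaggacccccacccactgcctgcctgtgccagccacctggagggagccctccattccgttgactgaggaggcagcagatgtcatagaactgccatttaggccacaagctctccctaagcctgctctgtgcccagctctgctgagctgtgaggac
SYK, chr9:90801569-90801868, plus strand: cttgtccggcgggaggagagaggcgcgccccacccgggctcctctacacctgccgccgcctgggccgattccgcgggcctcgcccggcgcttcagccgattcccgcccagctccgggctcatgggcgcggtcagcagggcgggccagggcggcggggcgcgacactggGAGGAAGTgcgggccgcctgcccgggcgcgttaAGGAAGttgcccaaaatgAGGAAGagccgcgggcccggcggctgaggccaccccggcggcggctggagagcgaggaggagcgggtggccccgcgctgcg
BTK, chrX:101390747-101391046, minus strand: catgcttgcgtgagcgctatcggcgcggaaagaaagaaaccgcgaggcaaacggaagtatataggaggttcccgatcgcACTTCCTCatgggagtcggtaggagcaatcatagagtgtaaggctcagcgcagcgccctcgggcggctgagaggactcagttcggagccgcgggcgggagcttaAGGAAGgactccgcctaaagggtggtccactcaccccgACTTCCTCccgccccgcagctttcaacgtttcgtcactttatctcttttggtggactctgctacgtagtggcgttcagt
The DOK3 window holds 1 TGTGGT core on the reverse strand, and this BTK window holds 2 reverse-strand copies of the purine box, the nearer one at positions -29 to -22 from the start. The purine box stood in 2 of the 11 windows, TGTGGT in 2, TGCGGT in 1 and AGGAAG in 8. Of 34796 promoter windows of the same 300 bases, 2.6% held the purine box, 13.1% TGTGGT, 7.29% TGCGGT and 33.7% AGGAAG. A match of letters says nothing about which start is used or whether a factor binds there.

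Levels are given in FPKM (fragments counted on a transcript, divided by its length and by library size), quantile normalized within each experiment. They summed to 554570 to 656995 in a library, the number of reads behind them is unknown, and a listed 0 may stand for an estimate that failed. In the marker check, 9 to 11 of 12 myeloid markers reached a mean of 1 FPKM in each group, led by lysozyme (LYZ) at 366 to 568 FPKM, while ELANE stayed under 1 FPKM in each group and MPO (0.653 to 2.44 FPKM) and CD14 (0.275 to 1.00 FPKM) were low. The sum of the 12 was 614 to 662 FPKM with ARV-825 and 554 to 565 FPKM with OTX015, against 887 to 943 FPKM in control, and 668 to 684 FPKM with RUNX1 shRNA, against 833 to 855 FPKM with non-targeting shRNA. Not every marker moved with the sum. LYZ averaged 366 FPKM with RUNX1 shRNA, against 542 FPKM with non-targeting shRNA. CD33, CSF2RB, CD34 and ITGAM were higher there, and the other means were lower. SPI1 averaged 59.9 FPKM with ARV-825 and 61.4 FPKM with OTX015, against 208 FPKM in control. With ARV-825, ITGAM, AZU1 and MPO were higher than in control, and the other means were lower. The part of these shifts in the members' values was not tested. Of the T cell markers, CD2 was listed at 0 in all libraries and CD3E and CD3G did not exceed 0.04 FPKM, while group means reached 10.7 to 19.6 FPKM for NCAM1, 0.488 to 2.65 FPKM for CD8A, 0.289 to 2.06 FPKM for CD247 and 0.245 to 0.841 FPKM for CD3D. The 12 T and NK cell markers summed to 12.38 to 13.99 FPKM with RUNX1 shRNA, against 16.2 to 18.0 FPKM with non-targeting shRNA. The B cell marker MS4A1 was listed at 0 in all libraries but 1. Group means were 48.1 to 77.4 FPKM for FCER2 and 2.36 to 5.35 FPKM for CD79A. The 8 mast cell and basophil markers summed to 17.0 to 20.15 FPKM in control. With ARV-825 the sum was 7.44 to 8.26 FPKM and with OTX015 8.11 to 8.55 FPKM. It was 22.3 to 24.5 FPKM with RUNX1 shRNA, against 14.5 to 14.8 FPKM with non-targeting shRNA. These shifts were those of GATA2, at 3.58 FPKM with ARV-825 and 5.20 FPKM with OTX015, against 15.5 FPKM in control. GATA2 averaged 22.6 FPKM with RUNX1 shRNA, against 13.2 FPKM with non-targeting shRNA. TPSAB1 went the other way, at 3.03, 2.04 and 1.54 FPKM with ARV-825, with OTX015 and in control. It had 0.584 FPKM with RUNX1 shRNA, against 0.79 FPKM with non-targeting shRNA, and TPSB2 moved as TPSAB1 did. The 9 erythroid and megakaryocytic markers summed to 4.94 to 8.08 FPKM over the groups. The target of the shRNA, RUNX1, had 37.2, 42.9 and 36.0 FPKM in RUNX1 shRNA libraries, against 69.8, 72.2 and 69.8 FPKM in non-targeting shRNA libraries (log2 difference -0.86 ± 0.059, SE, limma with Benjamini-Hochberg adjustment, adjusted p = 3.71e-05). RUNX3, the gene in the titles, had 28.4 ± 0.771 and 27.0 ± 1.8 FPKM in these groups (SD, n = 3 each, adjusted p = 0.341).

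In untreated cells the members covered a wide range of levels per transcript length. LAT2 averaged 119 FPKM and stood highest, followed by LYN (108 FPKM), DOK3 (88.0 FPKM), SYK (62.4 FPKM), SLA (50.5 FPKM) and BTK (33.9 FPKM). DOK2 (26.1 FPKM) and DOK1 (25.6 FPKM) came next, and their libraries overlapped. LAT and SLA2, known chiefly from lymphocytes, averaged 1.17 and 0.745 FPKM. This order was rearranged by the drugs. With ARV-825 LYN came first at 110.0 FPKM, ahead of SYK (35.4 FPKM), LAT2 (28.0 FPKM), BTK (24.9 FPKM) and DOK3 (21.5 FPKM), with LAT2 and BTK overlapping. With OTX015 LYN was again first at 135.5 FPKM, then DOK3 (30.0 FPKM), SYK (27.0 FPKM), BTK (20.4 FPKM), DOK1 (20.2 FPKM) and LAT2 (18.5 FPKM). The libraries of DOK1 overlapped those of BTK and those of LAT2, while BTK and LAT2 did not overlap. In bulk RNA, fewer cells with a transcript and less of it per cell cannot be told apart.

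**Figure D1:**
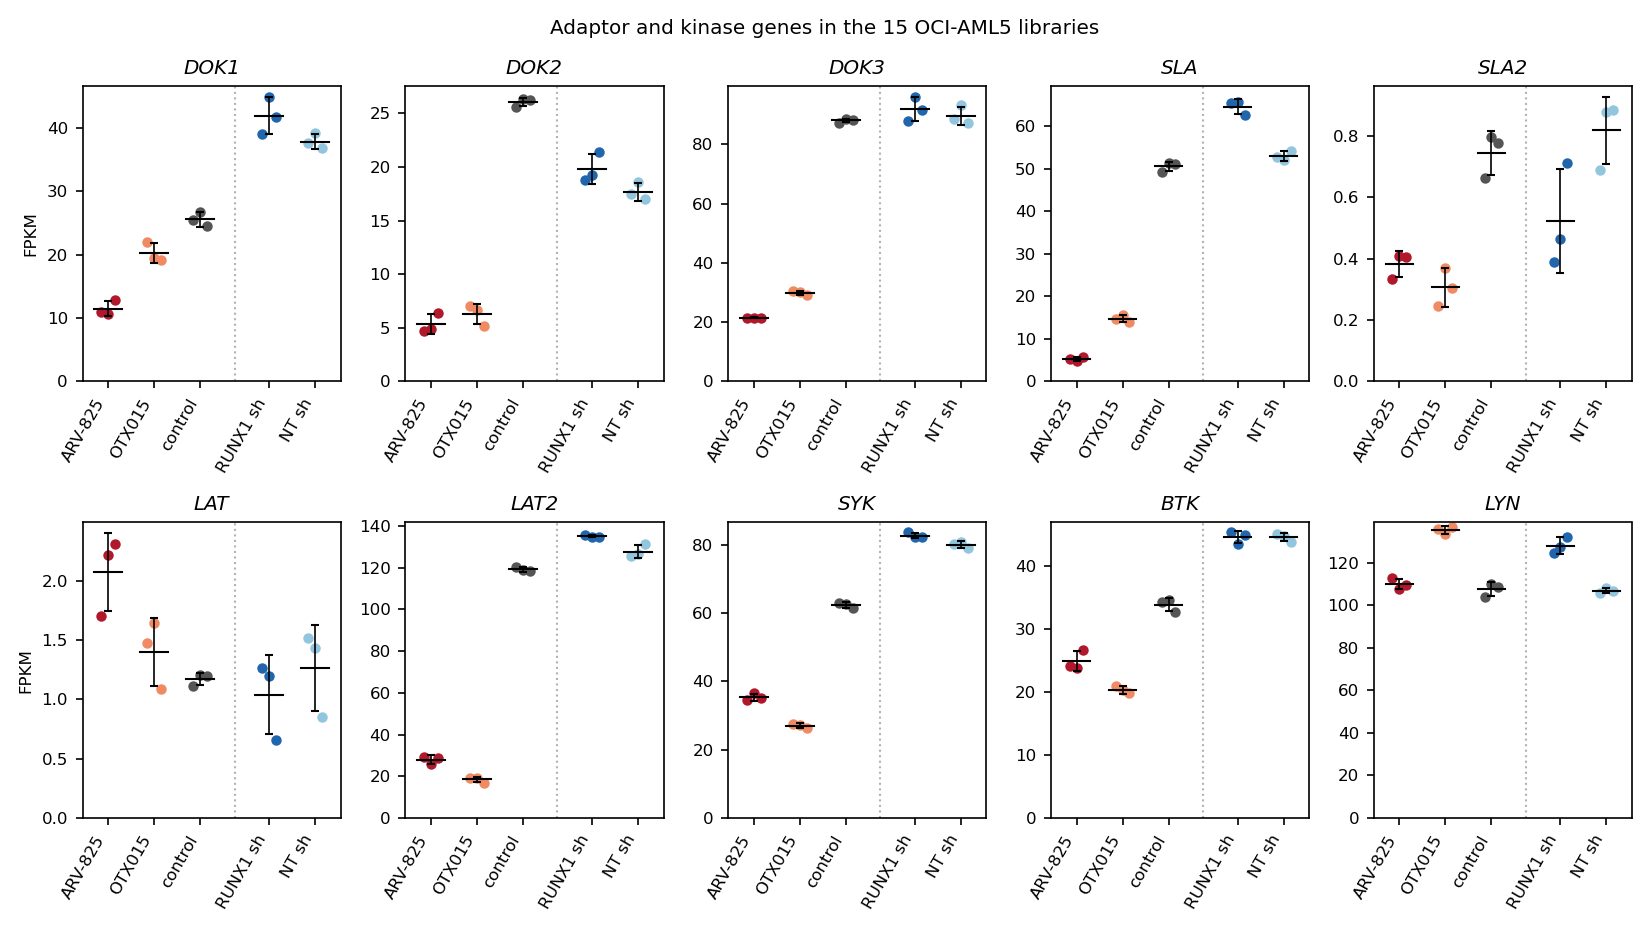
FPKM of the 10 genes (vertical axes, each from 0) in every library of the 5 groups. Points are libraries, horizontal lines are means of 3 and bars are SD. A dotted line parts the drug libraries from the shRNA libraries, which were normalized separately. DOK2, DOK3, SLA and LAT2 lie far below control with both drugs, LYN stands apart above control only with OTX015, and the shRNA groups lie close together.

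The first question was how the members stood 4 h after BET degradation or inhibition. Differences are on the scale of log2(FPKM + 1), which understates those of low genes, and the threshold is an adjusted p of 0.05 in limma with Benjamini-Hochberg adjustment over all tested genes. With ARV-825, 7 of the 9 tested members were lower past the threshold and 1 was higher, against 38.4% of all tested genes lower, 35.8% higher and 74.2% in either direction. With OTX015 again 7 were lower and 1 was higher, against 33.5% of all tested genes lower, 36.1% higher and 69.6% in either direction. At least 2-fold lower were 5 members with ARV-825 (8.16% of tested genes) and 5 with OTX015 (4.96%). Because these values chose the members, nothing is read from the counts. SLA2 did not reach the mean of 1 FPKM needed for the fit. The 2 drug comparisons share their control libraries.

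DOK3, an adaptor of myeloid and B cells, had 21.4, 21.5 and 21.6 FPKM with ARV-825 and 30.5, 30.1 and 29.3 FPKM with OTX015, against 87.3, 88.6 and 88.3 FPKM in control. The 3 groups did not overlap, and the level with ARV-825 was 24.4% of control and with OTX015 34.0%. The log2 differences were -1.98 (95% interval -2.07 to -1.90) and -1.52 (-1.60 to -1.44). An antisense gene overlaps exons of DOK3 in GENCODE release 29, and without a stated strand its reads cannot be told apart.

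DOK2, which restrains Ras signalling in myeloid and T cells, had 4.74, 4.88 and 6.39 FPKM with ARV-825 and 7.04, 6.63 and 5.22 FPKM with OTX015, against 25.6, 26.3 and 26.3 FPKM in control. Both drug groups lay far below control and overlapped each other. The differences from control on the log2 scale were -2.11 (-2.35 to -1.86) and -1.90 (-2.15 to -1.65).

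DOK1, the founding member of the family, had 10.9, 10.6 and 12.8 FPKM with ARV-825 and 22.0, 19.4 and 19.2 FPKM with OTX015, against 25.5, 26.8 and 24.4 FPKM in control. The log2 differences were -1.10 (-1.26 to -0.93) and -0.33 (-0.50 to -0.16). It kept 44.8% of its control level with ARV-825 and 79.0% with OTX015, and the 3 groups did not overlap. The summed level of the 3 DOK genes was 38.3 ± 2.13 FPKM with ARV-825 and 56.5 ± 2.95 FPKM with OTX015, against 139.7 ± 1.75 FPKM in control (SD, n = 3 libraries each). DOK1 made up 28.7% to 31.4% of that sum with ARV-825 and 34.5% to 36.9% with OTX015, against 17.6% to 18.9% in control. DOK2 made up 12.8% to 15.7% and 9.72% to 11.8% with the 2 drugs, against 18.5% to 18.9% in control. DOK3 made up 53.0% to 58.1% and 51.2% to 54.5%, against 62.5% to 63.5% in control. The DOK message that remained was richer in DOK1 and poorer in DOK2 and DOK3. Exons of LOXL3 overlap DOK1 on the other strand, and LOXL3 had 4.33, 3.08 and 4.15 FPKM on average with ARV-825, with OTX015 and in control.

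SLA, which downregulates receptors through CBL, had the largest difference of the members with ARV-825. It had 5.35, 4.87 and 5.84 FPKM with ARV-825 and 14.65, 15.65 and 14.01 FPKM with OTX015, against 49.2, 51.3 and 51.1 FPKM in control. The 3 groups did not overlap, and only 10.6% of the control level was left with ARV-825, against 29.2% with OTX015. The log2 difference was -3.02 (-3.17 to -2.88) with ARV-825, rank 19 from the lowest among 10819 tested genes, and -1.71 (-1.85 to -1.57) with OTX015. SLA lies within the span of the thyroglobulin gene TG on the other strand, with no overlap of exons. TG averaged 7.31 FPKM with ARV-825 and 1.65 FPKM with OTX015, against 0.25 FPKM in control. The part of either gene's reads in the other's value was not tested.

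SLA2 was low throughout. It had 0.335, 0.408 and 0.405 FPKM with ARV-825 and 0.244, 0.369 and 0.306 FPKM with OTX015, against 0.662, 0.794 and 0.777 FPKM in control. All drug libraries lay below all control libraries. Its exons overlap those of RAB5IF on the other strand, which was listed at 91.7 to 147 FPKM, so that the SLA2 values are uncertain.

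LAT2 (also NTAL or LAB), the transmembrane scaffold of myeloid, B and mast cells, had 29.3, 25.7 and 28.9 FPKM with ARV-825 and 19.2, 19.3 and 17.0 FPKM with OTX015, against 120.5, 118.8 and 118.2 FPKM in control. It was lower with OTX015 than with ARV-825, the reverse of DOK1, DOK3 and SLA, and the 3 groups did not overlap. The log2 differences from control were -2.05 (-2.19 to -1.92) with ARV-825 and -2.63 (-2.76 to -2.49) with OTX015. The OTX015 difference was rank 15 from the lowest of 10819.

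LAT, the scaffold of T cells, went the other way from LAT2 with ARV-825. It had 1.70, 2.22 and 2.31 FPKM with ARV-825 and 1.48, 1.64 and 1.09 FPKM with OTX015, against 1.116, 1.203 and 1.195 FPKM in control. The ARV-825 libraries lay above control, and the OTX015 libraries overlapped control. The log2 differences were 0.50 (0.26 to 0.74) and 0.14 (-0.10 to 0.38). LAT made up 5.47% to 7.95% of the summed LAT and LAT2 level with ARV-825 and 6.01% to 7.85% with OTX015, against 0.917% to 1.00% in control. The summed level of 12 T and NK cell markers was 23.5 to 27.5 FPKM with ARV-825 and 16.1 to 17.1 FPKM with OTX015, against 13.9 to 15.4 FPKM in control. Of these, 3 reached 1 FPKM with ARV-825 (CD247, CD8A and NCAM1) and 2 in each of the others. CD2 and LCK were listed at 0 in the drug experiment. Most of the sum was NCAM1, at 19.6 FPKM with ARV-825, 14.3 FPKM with OTX015 and 11.85 FPKM in control. All libraries are of 1 cell line, and a link of these markers to the LAT values was not tested. A processed transcript and an antisense gene overlap exons of LAT.

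SYK, the kinase that docks on ITAMs, had 34.5, 36.5 and 35.3 FPKM with ARV-825 and 27.5, 27.4 and 26.3 FPKM with OTX015, against 62.9, 62.8 and 61.4 FPKM in control. BTK, a TEC family kinase, had 24.3, 23.8 and 26.8 FPKM with ARV-825 and 21.0, 20.3 and 19.8 FPKM with OTX015, against 34.3, 34.7 and 32.7 FPKM in control. For both kinases all 3 groups stood apart, with OTX015 lowest. SYK kept 56.8% of its control level with ARV-825 and 43.4% with OTX015, and BTK 73.5% and 60.1%. The log2 differences were -0.80 and -1.18 for SYK and -0.43 and -0.71 for BTK.

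LYN, the SRC family kinase that phosphorylates both activating and inhibitory receptor motifs, was the one member of high level that was not lower. It had 113, 108 and 109.5 FPKM with ARV-825 and 136, 133 and 137 FPKM with OTX015, against 104, 110.1 and 108.5 FPKM in control. The ARV-825 libraries overlapped control, and all OTX015 libraries lay above it. The log2 difference was 0.03 (-0.05 to 0.12) with ARV-825 and 0.33 (0.25 to 0.42) with OTX015. The summed level of SYK, BTK and LYN was 170.4 ± 1.87 FPKM with ARV-825 and 183 ± 1.64 FPKM with OTX015, against 204 ± 3.4 FPKM in control. LYN made up 63.8% to 65.7% of it with ARV-825 and 73.7% to 74.8% with OTX015, against 51.7% to 53.5% in control.

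**Figure D2:**
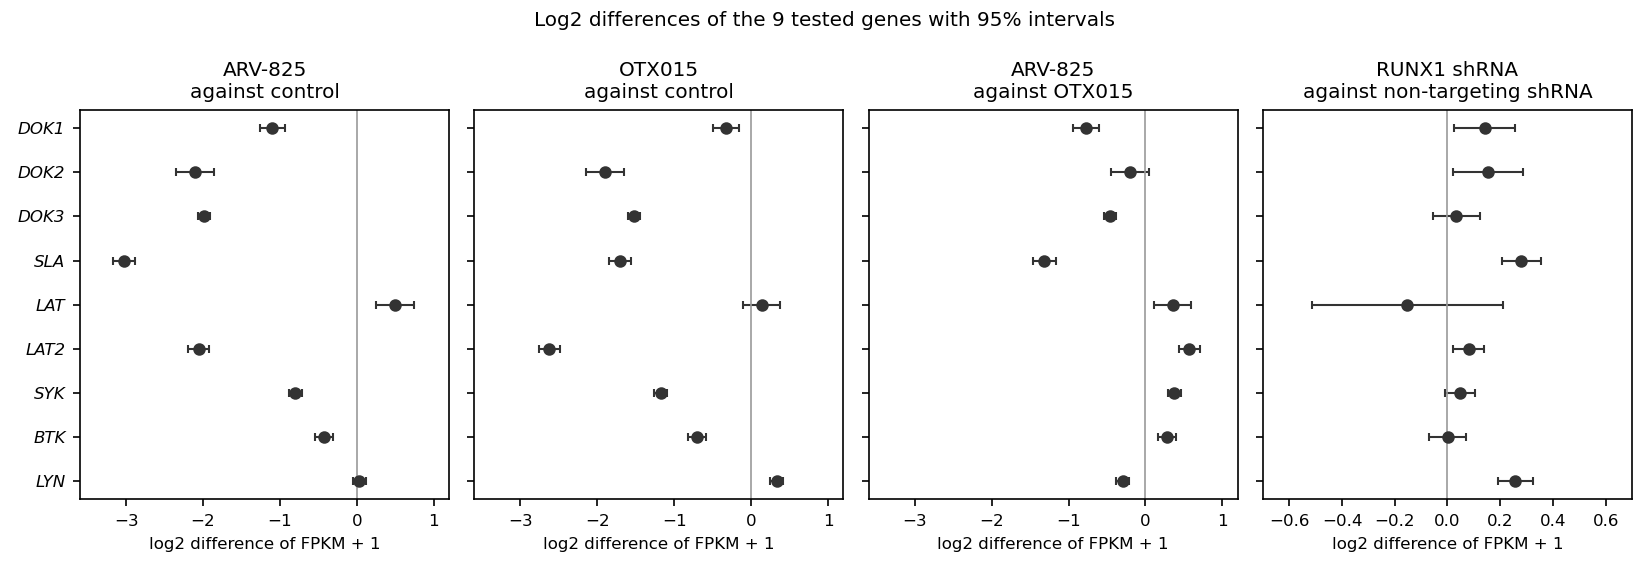
Log2 difference of FPKM + 1 (horizontal axes; the last panel has a narrower scale) for the 9 members with a mean of at least 1 FPKM, in 4 comparisons of 3 against 3 libraries. Points are limma estimates and bars their 95% intervals. DOK1, DOK3, SLA and LYN lie left of 0 for ARV-825 against OTX015, while LAT, LAT2, SYK and BTK lie right of it. The interval of DOK2 includes 0 there.

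**Figure D3:**
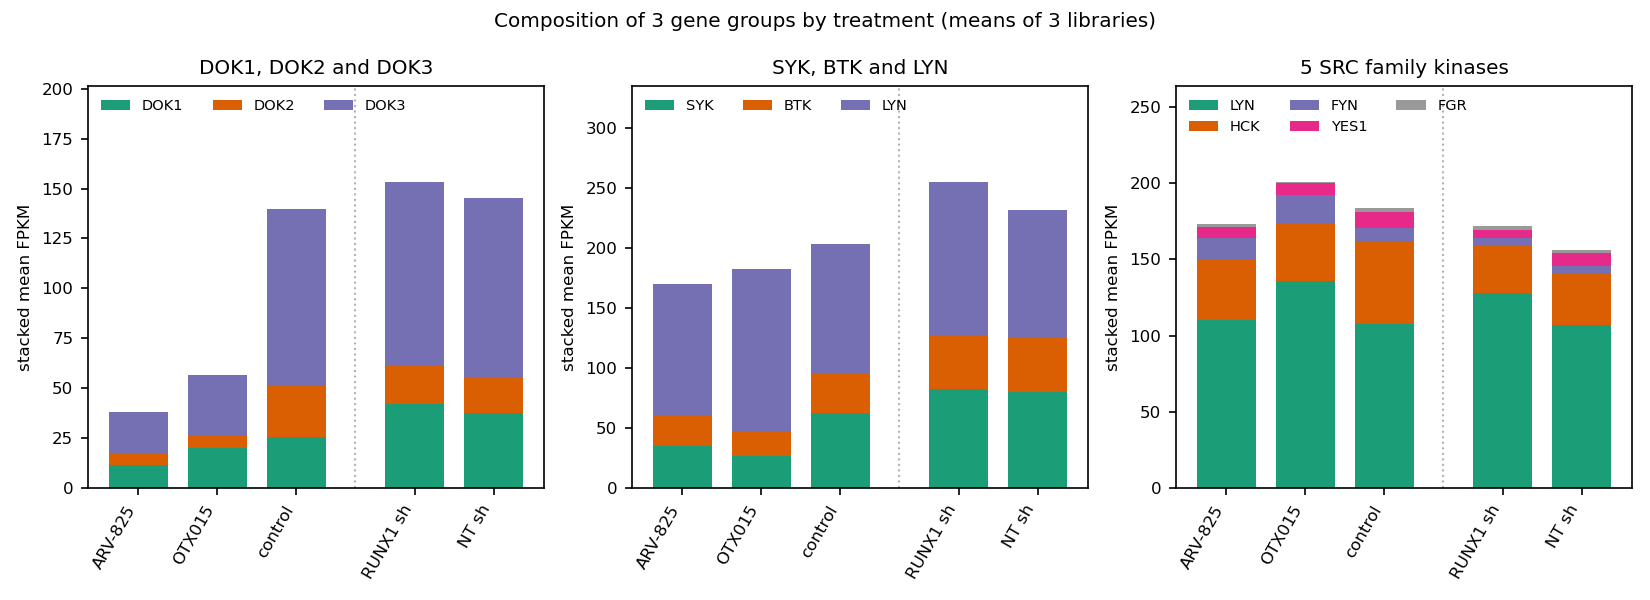
Mean FPKM of 3 libraries, stacked by gene (vertical axes from 0), for the DOK adaptors, for SYK, BTK and LYN, and for 5 SRC family kinases, in the 5 groups. The DOK stack is 38.3 FPKM with ARV-825 and 56.5 FPKM with OTX015, against 139.7 FPKM in control, while LYN is the largest layer of both kinase stacks in every group.

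The second question was whether the degrader and the inhibitor, at the same dose and time, differed in these genes. Limma with Benjamini-Hochberg adjustment called 58.1% of all tested genes between ARV-825 and OTX015. Of the 7 members that were not named as lower when the set was chosen, 6 were tested, 3 were higher with ARV-825 (24.7% of all tested genes), 2 were lower (33.4%) and 1 did not pass. SYK was higher with ARV-825, at 35.4 ± 1.01 FPKM with ARV-825 and 27.0 ± 0.645 FPKM with OTX015 (log2 difference 0.38 ± 0.04, SE, adjusted p = 2.53e-05). BTK was higher, at 24.9 ± 1.59 FPKM with ARV-825 and 20.4 ± 0.597 FPKM with OTX015 (0.28 ± 0.053, adjusted p = 0.00111). LAT was higher by 0.36 ± 0.109 on the log2 scale (adjusted p = 0.0159), and its call was lost without ARV-825 replicate 3 (adjusted p = 0.0504) or without OTX015 replicate 3 (adjusted p = 0.0627).

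DOK1 was lower with ARV-825, at 11.4 ± 1.16 FPKM with ARV-825 and 20.2 ± 1.56 FPKM with OTX015 (log2 difference -0.77 ± 0.076, SE, limma adjusted p = 1.71e-05). LYN was lower, at 110.0 ± 2.45 FPKM with ARV-825 and 135.5 ± 1.83 FPKM with OTX015 (-0.30 ± 0.038, adjusted p = 8.85e-05). DOK2 did not pass, with a log2 difference of -0.20 (95% interval -0.45 to 0.04, limma adjusted p = 0.141), yet it did without ARV-825 replicate 3 (-0.32, adjusted p = 0.0199) and without OTX015 replicate 3 (-0.32, adjusted p = 0.026). For the 3 members chosen on drug values, the differences were -1.31 for SLA, -0.46 for DOK3 and 0.57 for LAT2, given without a test. Among the members tested here, DOK1 and LYN were lower with the degrader than with the inhibitor, and SYK, BTK and LAT were higher. Against control, LYN differed by 0.03 with ARV-825 and by 0.33 with OTX015 on the log2 scale, so its level with the degrader was near that of control.

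The third question was how the members stood after RUNX1 knockdown, in libraries that the rule for their choice did not use. Earlier results of these data were known when the genes were chosen. Of the 9 tested members, 2 rose, where 13.5% of all tested genes rose, and 0 fell, where 13.8% fell (27.4% in either direction, limma with Benjamini-Hochberg adjustment). At an unadjusted p under 0.05, 5 members were higher, where 19.4% of all tested genes were, and 0 lower, where 20.6% were. The groups did not overlap in 5 members, where this held for 44.1% of tested genes.

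SLA rose with RUNX1 shRNA, with 65.5, 65.7 and 62.6 FPKM in RUNX1 shRNA libraries, against 52.9, 52.0 and 54.2 FPKM in non-targeting shRNA libraries. LYN rose as well, with 125, 127 and 132 FPKM in RUNX1 shRNA libraries, against 106, 108 and 107 FPKM in non-targeting shRNA libraries. In both genes every RUNX1 shRNA library lay above every non-targeting one. The log2 differences were 0.28 ± 0.032 for SLA (SE, adjusted p = 0.000534) and 0.26 ± 0.029 for LYN (adjusted p = 0.00048), increases of about 1.2-fold. SLA is the member with the largest drop under ARV-825, and the drug and shRNA experiments were not compared by a test.

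LAT2 had 136, 134.8 and 134.8 FPKM in RUNX1 shRNA libraries, against 125, 126.5 and 131 FPKM in non-targeting shRNA libraries. The groups did not overlap, yet the difference of 0.08 missed the threshold (95% interval 0.02 to 0.14, limma adjusted p = 0.0506). It passed with a filter at 5 FPKM, after median-ratio rescaling, and without non-targeting shRNA replicate 3 (adjusted p = 0.0425, 0.0407 and 0.0441). DOK1 averaged 41.8 ± 2.92 FPKM with RUNX1 shRNA and 37.8 ± 1.18 FPKM with non-targeting shRNA (0.14, 95% interval 0.02 to 0.26, adjusted p = 0.0735; adjusted p = 0.0263 without RUNX1 shRNA replicate 1). DOK2 averaged 19.8 ± 1.41 FPKM with RUNX1 shRNA and 17.7 ± 0.837 FPKM with non-targeting shRNA (0.15, 0.02 to 0.29, adjusted p = 0.0828).

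The remaining members did not pass the test. DOK3 averaged 91.8 ± 4.05 FPKM with RUNX1 shRNA and 89.6 ± 3.12 FPKM with non-targeting shRNA (log2 difference 0.03, 95% interval -0.06 to 0.12, limma adjusted p = 0.559). SYK, whose groups did not overlap, differed by 0.05 (-0.01 to 0.10, adjusted p = 0.208) and BTK by 0.00 (-0.07 to 0.07, adjusted p = 0.977). LAT, at about 1 FPKM, had the widest interval (-0.51 to 0.21, adjusted p = 0.509). SLA2 had 0.389, 0.464 and 0.713 FPKM in RUNX1 shRNA libraries, against 0.689, 0.877 and 0.884 FPKM in non-targeting shRNA libraries, and was too low for the fit.

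The other genes of the pathway were taken from 6 role lists of 108 genes, of which 106 were listed in the tables, 81 were tested in the drug experiment and 77 in the shRNA experiment. With ARV-825, 19 rose and 48 fell (median log2 difference -0.41, against -0.01 over all tested genes, of which 35.8% rose and 38.4% fell). With OTX015, 20 rose and 47 fell (median -0.30, against 0.03 over all tested genes, of which 36.1% rose and 33.5% fell). The risers with ARV-825 include FCER1G, TXK and GAB1, and those with OTX015 include TXK and GAB1. These genes reached the mean needed for the fit through drug libraries in which they were high, so their calls are no independent result. Between ARV-825 and OTX015, 27 were higher and 28 lower (median -0.05, against -0.04, with 24.7% of all tested genes higher and 33.4% lower). With RUNX1 shRNA, 23 rose and 15 fell (median 0.07, against -0.01, with 13.5% of all tested genes up and 13.8% down). The counts of each role list are to be read against these shares, and nothing particular to a list is drawn from them. The number that fell was 8 without non-targeting shRNA replicate 2, 7 without replicate 3 of that group and 8 with no filter on low values.

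Among receptors and their ITAM chains, 4 of 17 rose and 9 fell with ARV-825, and 0 rose and 13 fell with OTX015 (median log2 differences -0.574 and -0.631). The activating IgG receptor FCGR2A averaged 141 ± 11.6 FPKM with ARV-825 and 148 ± 9.32 FPKM with OTX015, against 420 ± 8.03 FPKM in control. The macrophage growth factor receptor CSF1R averaged 14.6 ± 0.315 FPKM with ARV-825 and 8.26 ± 0.214 FPKM with OTX015, against 41.1 ± 0.98 FPKM in control. Between the drugs, 11 of the 17 were higher with ARV-825 and 1 lower, led by the IgG receptors FCGR3A (log2 difference 1.17 ± 0.091, SE) and FCGR1A (0.84 ± 0.075). FCER1G, counted among these 11, averaged 1.85 FPKM with ARV-825, 0.645 FPKM with OTX015 and 0.875 FPKM in control. It reached the mean needed for the fit through its ARV-825 libraries, so its calls are no independent result. FCGR1A fell with ARV-825 (-1.27 ± 0.075) and with OTX015 (-2.11 ± 0.075), and FCGR3A fell with OTX015 (-1.06 ± 0.091), while its difference with ARV-825 was 0.11 ± 0.091 (limma adjusted p = 0.299). These IgG receptor genes have near-identical copies, and their separate values are uncertain. With RUNX1 shRNA, FCGR1A rose (0.81 ± 0.07, limma adjusted p = 0.000132) and the growth factor receptor FLT3 fell (-0.59 ± 0.058, adjusted p = 0.000243), among 4 up and 5 down of 15.

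Of 6 tested SRC family kinases and their regulators, 1 rose and 5 fell with each drug (median log2 differences -0.42 with ARV-825 and -0.605 with OTX015). CSK, which holds SRC family kinases inactive, averaged 50.5 ± 0.558 FPKM with ARV-825 and 80.3 ± 2.1 FPKM with OTX015, against 132 ± 1.86 FPKM in control. FYN, another SRC family kinase, was the riser, at 14 ± 1.48 FPKM with ARV-825 and 18.6 ± 0.86 FPKM with OTX015, against 8.46 ± 0.26 FPKM in control. FGR, a SRC family kinase, fell with ARV-825 (-0.43 ± 0.101) and OTX015 (-1.12 ± 0.101), and so did the CSK relative MATK (-0.36 ± 0.058 and -1.03 ± 0.058). Both were higher with ARV-825 than with OTX015 (0.70 ± 0.101 for FGR and 0.68 ± 0.058 for MATK). LYN made up 62.6% to 64.5% of the summed SRC family level with ARV-825 and 67.2% to 67.5% with OTX015, against 57.5% to 58.8% in control. With RUNX1 shRNA that share was 73.2% to 75.5%, against 68.1% to 69.0% with non-targeting shRNA, and YES1 fell (-0.53 ± 0.073, limma adjusted p = 0.00126). The change of CSK (-0.08 ± 0.026, adjusted p = 0.0485) missed the threshold under 9 of 12 alternatives.

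In the SYK and TEC family, 2 of 5 were tested with the drugs. TXK, a TEC family kinase, was at 4.68 ± 0.977 FPKM with ARV-825 and 1.34 ± 0.11 FPKM with OTX015, against 0.552 ± 0.171 FPKM in control. It reached the mean needed for the fit through its ARV-825 libraries, so its calls are no independent result. TEC fell with ARV-825 and with OTX015 (-0.52 ± 0.091 and -0.45 ± 0.091) and rose with RUNX1 shRNA (0.41 ± 0.064, limma adjusted p = 0.00231). The SYK relative ZAP70 was near 0 in all groups.

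Of 18 other adaptors, 7 rose and 8 fell with ARV-825, and 6 rose and 6 fell with OTX015, shares near those of all tested genes. GAB1, a riser with both drugs, averaged 1.23 FPKM with ARV-825, 1.38 FPKM with OTX015 and 0.594 FPKM in control. It reached the mean needed for the fit through its drug libraries. LCP2 (SLP-76), which holds phospholipase C gamma at the scaffold, averaged 7.92 ± 0.0298 FPKM with ARV-825 and 14.4 ± 0.526 FPKM with OTX015, against 33.5 ± 1.24 FPKM in control. The transmembrane adaptor LAX1 fell with ARV-825 (-1.43 ± 0.097) and with OTX015 (-0.65 ± 0.097). FYB, a partner of LCP2, fell with both (-0.51 ± 0.061 and -1.26 ± 0.061), as did PIK3AP1, which links receptor signalling to phosphoinositide 3-kinase (-1.18 ± 0.049 and -1.22 ± 0.049). Between the drugs, LIME1, a transmembrane adaptor that rose with ARV-825 (0.97 ± 0.113), was higher with ARV-825 (1.03 ± 0.113) and LCP2 lower (-0.78 ± 0.05). With RUNX1 shRNA, LCP2 rose to 48.7 ± 2.19 FPKM, against 35.8 ± 0.739 FPKM with non-targeting shRNA (0.43 ± 0.039, limma adjusted p = 0.000151). The docking protein GAB2 fell (-0.32 ± 0.081, adjusted p = 0.0199), the only decrease among 7 calls there, and it was lost in 3 of 11 alternatives.

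Of 17 effectors, 4 rose and 10 fell with ARV-825, and 8 rose and 8 fell with OTX015. The inositol kinase ITPKB averaged 1.34 ± 0.127 FPKM with ARV-825 and 3.74 ± 0.106 FPKM with OTX015, against 7.82 ± 0.365 FPKM in control, and the exchange factor VAV3 fell with both drugs (-1.06 ± 0.143 and -0.95 ± 0.143). MALT1, a protease of the NF-kB branch, fell with ARV-825 (-0.59 ± 0.074), rose with OTX015 (0.24 ± 0.074) and was lower with ARV-825 than with OTX015 (-0.83 ± 0.074). RASGRP2, an activator of the small GTPase Rap, fell with ARV-825 (-0.60 ± 0.058), with OTX015 (-1.17 ± 0.058) and with RUNX1 shRNA (-0.73 ± 0.033, limma adjusted p = 3.98e-06), and the Ras activator SOS1 rose with RUNX1 shRNA (0.38 ± 0.056).

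Of 21 inhibitors of the pathway, 2 rose and 15 fell with ARV-825, and 4 rose and 14 fell with OTX015 (median log2 differences -0.47 and -0.67). The phosphatase PTPN6 (SHP-1) averaged 44.4 ± 1.18 FPKM with ARV-825 and 85.6 ± 3.66 FPKM with OTX015, against 142 ± 16.3 FPKM in control. The inhibitory receptor CD300A averaged 1.08 ± 0.134 FPKM with ARV-825 and 1.59 ± 0.346 FPKM with OTX015, against 6.87 ± 0.209 FPKM in control, and UBASH3B, a phosphatase that acts on SYK, fell with ARV-825 (-1.08 ± 0.123) and with OTX015 (-1.50 ± 0.123). Between the drugs, PTPN6 was lower (-0.93 ± 0.073) and the inhibitory receptor PILRA, which rose with ARV-825 (0.74 ± 0.083), higher (0.89 ± 0.083) with ARV-825. With RUNX1 shRNA, 9 of 20 genes of this list rose and 1 fell. The largest differences were those of the phosphatase PTPRC and of RASA1, the RasGAP that DOK1 and DOK2 recruit. They were 0.44 ± 0.043 for PTPRC (CD45, limma adjusted p = 0.000234) and 0.44 ± 0.051 for RASA1 (adjusted p = 0.000601). PTPRC stands in the list as a phosphatase, yet it is best known for activating SRC family kinases by removing their inhibitory phosphate.

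**Figure D4:**
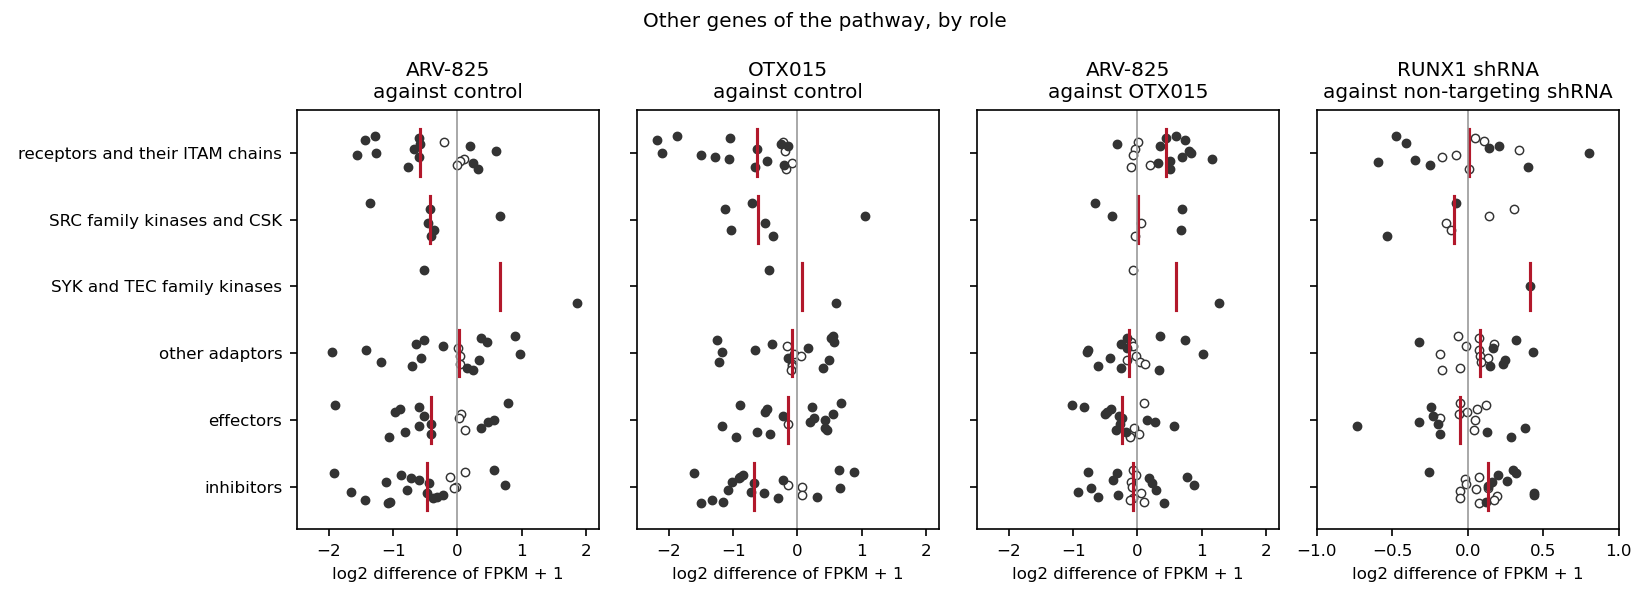
Log2 difference of FPKM + 1 (horizontal axes; the last panel has a narrower scale) of each tested gene of the 6 role lists in 4 comparisons. Filled points passed the threshold of adjusted p = 0.05 in limma, open points did not, and red lines mark list medians. Most inhibitors lie left of 0 with either drug (15 of 21 fell with ARV-825, where 38.4% of all tested genes fell). So do most receptors (9 of 17 fell with ARV-825) and SRC family genes (5 of 6). Most called inhibitors lie right of 0 with RUNX1 shRNA (9 of 20 rose and 1 fell). Of all tested genes, 13.5% rose and 13.8% fell there.

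Genes with the nearest pattern were sought among 10573 genes tested in both experiments, by Euclidean distance over 3 log2 differences (each drug against control, and RUNX1 shRNA against non-targeting shRNA). Nearest to DOK3 were ANKLE1 and NFIC (distances 0.06 and 0.06), and nearest to BTK were SEPHS1 and PSMB8 (0.03 and 0.04). LYN lay closest to SON and LNPEP (0.04 and 0.04), and SYK to SEPTIN5 and PTPN22 (0.09 and 0.09). SLA and LAT2 had more distant neighbours, IL16 and ZEB2 for SLA (0.36 and 0.39) and CACNA2D3 and GPR85 for LAT2 (0.26 and 0.27). Both were chosen as far lower with a drug, and the drug differences enter the distance, so nothing is read from this.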

How the data were processed

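Gene expression was measured by RNA sequencing in 15 OCI-AML5 libraries. The deposited values, in a table for the 9 drug libraries and another for the 6 shRNA libraries, were taken to be FPKM that the authors had quantile normalized table by table. The headers state no unit. That reading rests on Cufflinks 2.0, which is listed with TopHat2 2.0 and the build hg19 per the submitters' processing notes, on an abbreviation in the table names, and on the values themselves, which are never negative and not whole. The gene annotation and the strand setting are not given in the sources used here. Depth per library is unknown, so no counting interval is given, and the scaling hides any change in a cell's total RNA.

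Of 19620 entries per table, 16 pseudoautosomal copies were left out. Differences were computed on log2(FPKM + 1) and tested with limma 3.58.1, two-sided and with a mean-variance trend, under R 4.3.3. A gene entered a fit if its mean there reached 1 FPKM. Benjamini-Hochberg adjustment ran over all tested genes, with a threshold of 0.05. The drug libraries shared 1 fit and the shRNA libraries had their own, since normalization was run on each table alone. The ARV-825 libraries correlated less with one another (lowest 0.9779) than those of OTX015 (lowest 0.9929) or control (lowest 0.9956). The drug fit used 1 spread per gene for these groups. Separate cultures are not described beyond the term biologic triplicates, so p-values measure the spread between libraries, which may be technical. Overlapping genes come from GENCODE release 29, which is on another build, and only names and overlaps were used. The code was tested on simulated data.

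The genes described and the pathway lists were chosen with earlier results of these data known. Besides these genes, RUNX1 and marker genes, those named are up to 2 per pathway list and comparison with the largest absolute difference past the threshold, and the 2 closest in pattern to each of 6 members. Genes named outside this rule were chosen after their values were seen. Alternatives were another pseudocount, 2 other filters, median-ratio rescaling, no trend, a replicate block, fits of 2 groups, and leaving out each library.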

Additional observations from a re-analysis of the deposited data

How the results depend on the processing

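Over 7 alternative settings in the drug fits, 6 in the shRNA fit and every left-out library, 524 of 536 member results kept their direction and their side of the threshold. The exceptions besides those given with LAT, DOK2, LAT2 and DOK1 were sign changes of BTK with RUNX1 shRNA, whose difference of 0.00 ranged from -0.011 to 0.019 (-0.01, -0.011 and -0.003 without non-targeting shRNA replicate 3, RUNX1 shRNA replicate 1 and RUNX1 shRNA replicate 3). The pathway genes that fell with RUNX1 shRNA numbered 15, but 8 with no filter on low values, and 7 to 12 with 1 library left out, with 8 and 7 without non-targeting shRNA replicates 2 and 3. The cause was not tested. Same-numbered libraries did not deviate together (correlations of their deviations from -0.321 to 0.061 in the drug experiment and -0.003 to 0.061 in the shRNA experiment). With 3 libraries per group this cannot exclude a pairing, and the main fits left replicate numbers out. The highest correlation was 0.409, between ARV-825 replicate 2 and OTX015 replicate 3, and its cause was not tested. With the replicate block the calls numbered 7771, 7262, 5884 and 2585 for ARV-825, OTX015, ARV-825 against OTX015 and RUNX1 shRNA, against 8025, 7528, 6282 and 2988 without it, and DOK1 passed with RUNX1 shRNA (adjusted p = 0.0492). Depth is unknown, so that values near 1 FPKM (LAT) or below it (SLA2) have an unknown counting error.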

Other observations

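TG, the thyroglobulin gene that spans SLA on the opposite strand, was higher with both drugs. It was picked after its values were seen, and it reached the mean needed for the fit through its ARV-825 libraries, so its differences are a description with no test. It had 7.98, 7.05 and 6.91 FPKM with ARV-825 and 1.78, 1.77 and 1.41 FPKM with OTX015, against 0.131, 0.261 and 0.358 FPKM in control. The log2 difference was 2.74 ± 0.098 with ARV-825 (SE), 1.09 ± 0.098 with OTX015 and 1.65 ± 0.098 for ARV-825 against OTX015. With a pseudocount of 0.1 the first of these was 4.46. The order of the drugs was the reverse of that in SLA, which was lowest with ARV-825. With RUNX1 shRNA, where SLA was higher, TG had 0.402, 0.322 and 0.234 FPKM in RUNX1 shRNA libraries, against 0.413, 0.537 and 0.521 FPKM in non-targeting shRNA libraries, below the level needed for the fit. No source used here says whether reads of the 2 strands were kept apart.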
